A study of Mus musculus with 10 samples.

Results

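The SR and hnRNP genes code for the abundant RNA-binding proteins that set which splice sites are used in most transcripts. Genes were taken when their symbol in the authors' expression matrix was Srsf followed by a number or began with Hnrnp, and this rule found 31 of the 15686 genes of the matrix, namely 11 SR genes and 20 hnRNP genes. SR proteins carry RNA recognition motifs and a domain rich in arginine and serine, bind exonic enhancers and recruit the spliceosome to nearby splice sites, and several of them also act in the export and translation of mRNA. The hnRNP proteins coat nascent transcripts, often silence exons that SR proteins promote, and also serve in mRNA stability, transport and chromatin organisation. Both families are expressed in nearly every cell type, so that their balance, more than their presence, is known to tune splicing, and several members limit their own level by poison exons that trigger decay of the transcript.

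The genes were followed in nuclear RNA of HM-1 mouse embryonic stem (ES) cells, 1 cell line, and of 4 stages of their differentiation to blood in serum, with 2 libraries per stage. ES were the undifferentiated cells, HB were haemangioblasts purified on FLK1 with magnetic beads from embryoid bodies after 3 days, and the other stages were sorted by flow cytometry after a further blast culture of such cells with VEGF and IL-6. HE1 was the first haemogenic endothelium (KIT+ TIE2+ CD41-), HE2 the second (KIT+ TIE2+ CD41+) and HP the haematopoietic progenitors (KIT+ TIE2- CD41+). All stages came from the same line. The authors describe their 2 replicates as biologically independent where they show the expression of Mecom. Nothing in the labels says whether the 2 libraries of a stage came from separate differentiations. The p-values given here therefore measure only the spread between these libraries. The culture and the purification changed together with the stage between ES and HB, between HB and HE1 and between ES and HP, and cannot be told apart from it.

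Counts on exons lay between 24920434 and 58782055 per library, and all 31 genes passed the filter on low counts, among 22596 genes tested. Levels are given as CPM, the count of a gene brought to a common library size, after the library sizes were scaled by the trimmed mean of M values (TMM). Stages were compared with edgeR's quasi-likelihood test and the Benjamini-Hochberg adjustment over all tested genes, and a gene was called at an adjusted p under 0.05. HE1 replicate 2 stood apart. The summed level of 5 ES markers (Pou5f1, Sox2, Nanog, Zfp42 and Esrrb) was 67.0 CPM in it, against 6.31 CPM in HE1 replicate 1 and 1998 and 1920 CPM in the ES libraries, and of 3 cardiac markers Tnnt2 was at 74.2 against 15.98 CPM, Myl7 at 1.42 against 0.379 CPM and Nkx2-5 at 4.03 against 4.33 CPM. The ES marker sum was 98.8 and 74.5 CPM in the HB libraries. Of 3 neural markers Tubb3 was at 73.6 CPM in HE1 replicate 2 against 29.2 CPM in HE1 replicate 1. Sox1 was at 2.15 against 0 CPM and Pax6 at 0.198 against 0.589 CPM. Cdh5, an endothelial marker, was at 798 against 1431 CPM, and its level was at most 179 CPM in ES, HB and HP. Itga2b, the gene of CD41, was at 227 and 127 CPM in HE1 and at 505 and 469 CPM in HE2. The nuclear RNAs Malat1 and Neat1 together took 0.513% of the counts of HE1 replicate 1 and 1.029% of those of HE1 replicate 2, and the TMM factor of replicate 2 was 1.13, against 0.954 to 1.06 in the other libraries. The part of these differences in the results below was not tested, and results that rest on HE1 are given without either library where that changed a call or moved a value by over 1.5 times. In RNA from a mixture, a smaller number of cells with a given level and a lower level in each cell cannot be told apart.

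Of the 31 genes, 29 had an entry in the RefSeq promoter table (build GRCm38.p6), which holds 250 bases before and 50 bases after the start, and the entry nearest to the annotated start was used; Hnrnpll and Hnrnpul2 had none. The median GC content of these 29 promoters was 68.3%, against 52.7% over all 32851 promoters of the table, and the median number of CpG was 31 against 7. The range over the members was wide, from 7 CpG in Hnrnpf, named after its value was seen, to 52. Hnrnpf had 4 entries, and its value is that of the nearest one only. The motif CCAAT, searched on both strands, stood in 16 of 29 promoters (55.2%, against 37.4% of all promoters), CACGTG in 4 (13.8% against 7.15%) and TATAAA in 4 (13.8% against 13.6%). The promoters of 5 genes to which the later results turn are printed 5′ to 3′ with CCAAT and its reverse complement ATTGG in capitals; neither of the other motifs occurred in them and the motifs did not overlap. Hnrnpa1 (chr15:103240147-103240446, plus strand) and Hnrnpdl (chr5:100039173-100039472, minus strand) had the strongest falls, Srsf9 (chr5:115326927-115327226, plus strand) rose and fell, Srsf1 (chr11:88047123-88047422, plus strand) was the gene called between HE1 and HE2, and Hnrnpr (chr4:136310692-136310991, plus strand) rose from ES to HP.
Hnrnpa1: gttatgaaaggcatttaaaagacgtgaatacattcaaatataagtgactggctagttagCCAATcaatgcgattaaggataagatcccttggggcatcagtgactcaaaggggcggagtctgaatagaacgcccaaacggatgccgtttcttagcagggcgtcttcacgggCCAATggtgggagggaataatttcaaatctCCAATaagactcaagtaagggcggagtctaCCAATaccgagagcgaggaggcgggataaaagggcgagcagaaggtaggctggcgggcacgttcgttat
Hnrnpdl: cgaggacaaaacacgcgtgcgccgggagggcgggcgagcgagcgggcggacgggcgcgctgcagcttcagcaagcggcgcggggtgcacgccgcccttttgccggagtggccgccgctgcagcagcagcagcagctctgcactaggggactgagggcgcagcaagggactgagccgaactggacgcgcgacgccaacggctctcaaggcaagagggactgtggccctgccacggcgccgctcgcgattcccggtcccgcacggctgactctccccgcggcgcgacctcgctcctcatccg
Srsf9: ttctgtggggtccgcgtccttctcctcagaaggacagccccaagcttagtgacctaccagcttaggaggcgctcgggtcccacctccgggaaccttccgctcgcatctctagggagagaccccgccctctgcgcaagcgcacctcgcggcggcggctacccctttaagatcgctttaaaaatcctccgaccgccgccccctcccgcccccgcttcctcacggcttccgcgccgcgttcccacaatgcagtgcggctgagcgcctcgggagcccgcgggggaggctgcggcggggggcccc
Srsf1: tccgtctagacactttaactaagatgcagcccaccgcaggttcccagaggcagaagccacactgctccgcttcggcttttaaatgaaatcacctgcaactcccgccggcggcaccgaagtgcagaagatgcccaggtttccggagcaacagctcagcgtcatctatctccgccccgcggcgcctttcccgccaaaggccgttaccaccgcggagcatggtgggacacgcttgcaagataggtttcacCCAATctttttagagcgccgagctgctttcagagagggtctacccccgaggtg
Hnrnpr: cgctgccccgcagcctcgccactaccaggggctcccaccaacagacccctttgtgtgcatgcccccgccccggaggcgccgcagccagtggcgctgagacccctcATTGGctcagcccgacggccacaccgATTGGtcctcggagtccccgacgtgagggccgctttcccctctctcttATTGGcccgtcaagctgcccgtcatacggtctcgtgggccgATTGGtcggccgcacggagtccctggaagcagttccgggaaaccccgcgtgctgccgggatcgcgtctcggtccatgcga

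The promoter of Hnrnpa1 held 4 copies of the motif and was the poorest in GC of the 5, at 48.3%. That of Hnrnpr also held 4, that of Srsf1 held 1, and those of Hnrnpdl (72.7% GC, and 442 bases from the start that the count files give) and Srsf9 (69.0% GC) held none. Among the genes called lower in HE1 than in HB, described below, 5 of 11 promoters held CCAAT, against 11 of the other 18. These are matches of letters and say nothing of binding.

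Within each family the levels spread over a wide range. Levels of different genes were compared as CPM per kb of exon, the mean over the 10 libraries. Among the SR genes Srsf2 was highest at 174 CPM per kb, followed by Srsf1 at 94.8 and Srsf7 at 83.7, and the lowest were Srsf10 at 28.5, Srsf4 at 26.1 and Srsf12 at 0.644. Among the hnRNP genes Hnrnpab was highest at 280.0 CPM per kb, followed by Hnrnpa1 at 234 and Hnrnpa2b1 at 133. The lowest were Hnrnpa3 at 16.9, Hnrnpll at 11.01 and Hnrnpr at 6.88. This order rests on the length of all annotated exons, 22.2 kb for Hnrnpr and 11.7 kb for Hnrnpll against 2.78 kb for Hnrnpab. Without division by length Hnrnpr lay between 113 and 188 CPM, above Hnrnph3 at 38.4 to 77.7 CPM. Neighbours in this order were mostly not separated. The lowest of the 10 libraries of the upper gene was above the highest of the lower gene in 1 of 10 neighbouring SR pairs (Srsf4 above Srsf12) and in 2 of 19 hnRNP pairs (Hnrnpul2 above Hnrnph2, and Hnrnpa3 above Hnrnpll). The order of 2 neighbours was the same in all 10 libraries in 4 of 10 SR pairs and 6 of 19 hnRNP pairs. At the top of the hnRNP genes, Hnrnpa1 was above Hnrnpab in ES, at 240.3 against 211 CPM per kb, and below it in HE1, at 161 against 251 CPM per kb. Hnrnpa1 has processed copies in the genome and fragments aligned to several places were not counted, so its level is uncertain. Hnrnpm, Hnrnpul2 and Hnrnpa3 share 14.7%, 5.06% and 1.06% of their exon bases with a gene on the same strand, whose fragments were counted on both.

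**Figure D1:**
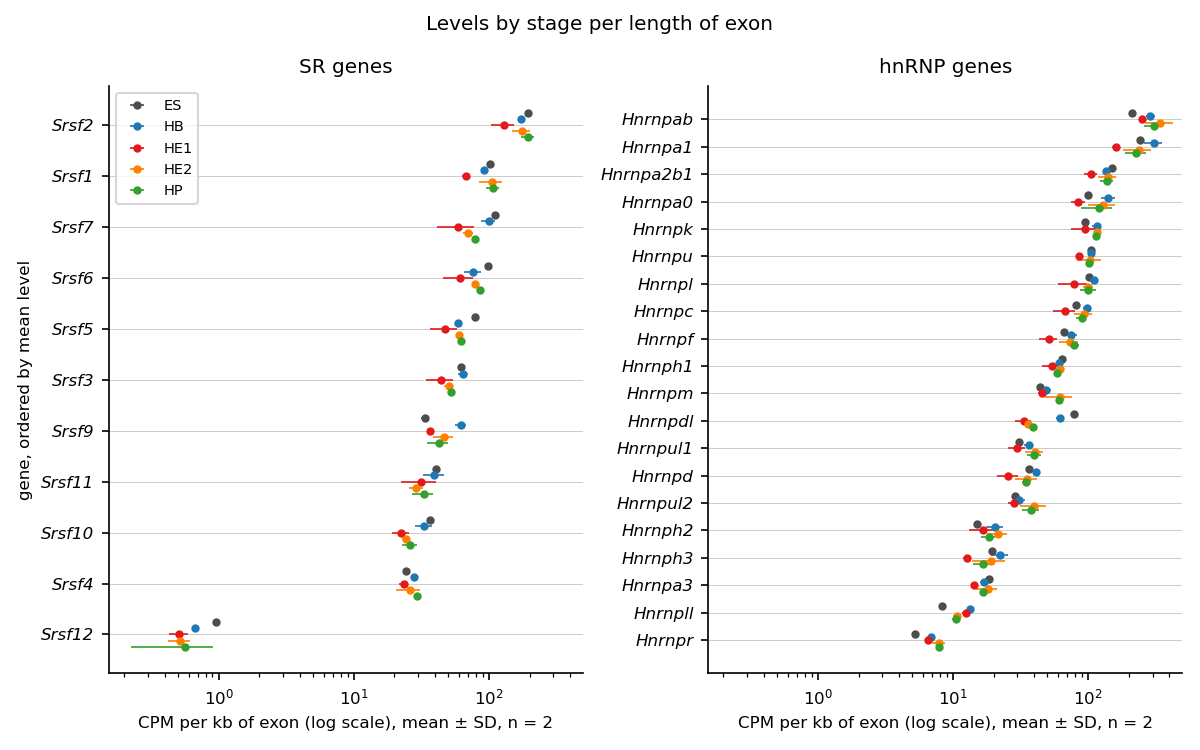
CPM per kb of exon (log axis) of each SR gene (left) and hnRNP gene (right) with the stages in colours; points are means over the libraries of a stage (n = 2) and bars the SD. The distance from the highest to the lowest gene exceeds that between the stages of a gene: Srsf2 averages 174 CPM per kb and Srsf12 averages 0.644.

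Over the 5 stages the members moved little. The ratio of the highest to the lowest stage mean was under 2-fold in 30 of 31 genes, with a median of 0.60 on the log2 scale, whereas the 15566 matrix genes that were tested had a median of 1.44 and 36.2% of them stayed under 2-fold. The matrix genes were not matched to the members for level, and the part of level in this difference was not tested. Among the members the smallest ranges were those of Hnrnph1 at 1.18-fold, Hnrnpu at 1.23-fold and Hnrnpk at 1.24-fold. The largest was that of Hnrnpdl at 2.33-fold, followed by Hnrnpa1 at 1.91-fold. A difference between any of the 5 stages was called for 10 of 31 members (5 SR and 5 hnRNP genes), against 66.7% of all tested genes. This number depended on the method: it was 18 with limma-voom, 20 with DESeq2 and 23 with total counts in place of TMM, where 69.3%, 67.4% and 67.2% of all genes were called, and it fell to 4 without ES replicate 1 and 5 without ES replicate 2 or HB replicate 2, where 51.7%, 51.8% and 58.3% of all genes were called. It rose to 17 without HE1 replicate 1 and 16 without HE2 replicate 1, where 71.0% and 67.7% of all genes were called.

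The stage of the lowest level was shared by most members. The lowest stage mean was that of HE1 in 24 of 31 genes (9 of 11 SR and 15 of 20 hnRNP genes), against 23.9% of the matrix genes, and that of ES in 6. The highest was that of ES in 12 genes, HB in 9, HE2 in 6 and HP in 4, and of HE1 in none. By library, HE1 replicate 2 was the lowest of the 10 in 24 of 31 members and in 19.6% of the matrix genes, and HE1 replicate 1 was the lowest in 2. Within HE1, 28 of 31 members were lower in replicate 2 than in replicate 1, with a median difference of -0.29 on the log2 scale, while over all tested genes the median difference was -0.02. These numbers depended on the scaling: with total counts in place of TMM the lowest stage mean was that of HE1 in 19 members, HE1 replicate 2 was the lowest library in 11, and 16 were lower in replicate 2 than in replicate 1, with a median difference of -0.04. With TMM, but without HE1 replicate 2, the lowest stage mean was that of HE1 in 16 members, against 24.4% of the matrix genes, and without HE1 replicate 1 in 25, against 28.4%.

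**Figure D2:**
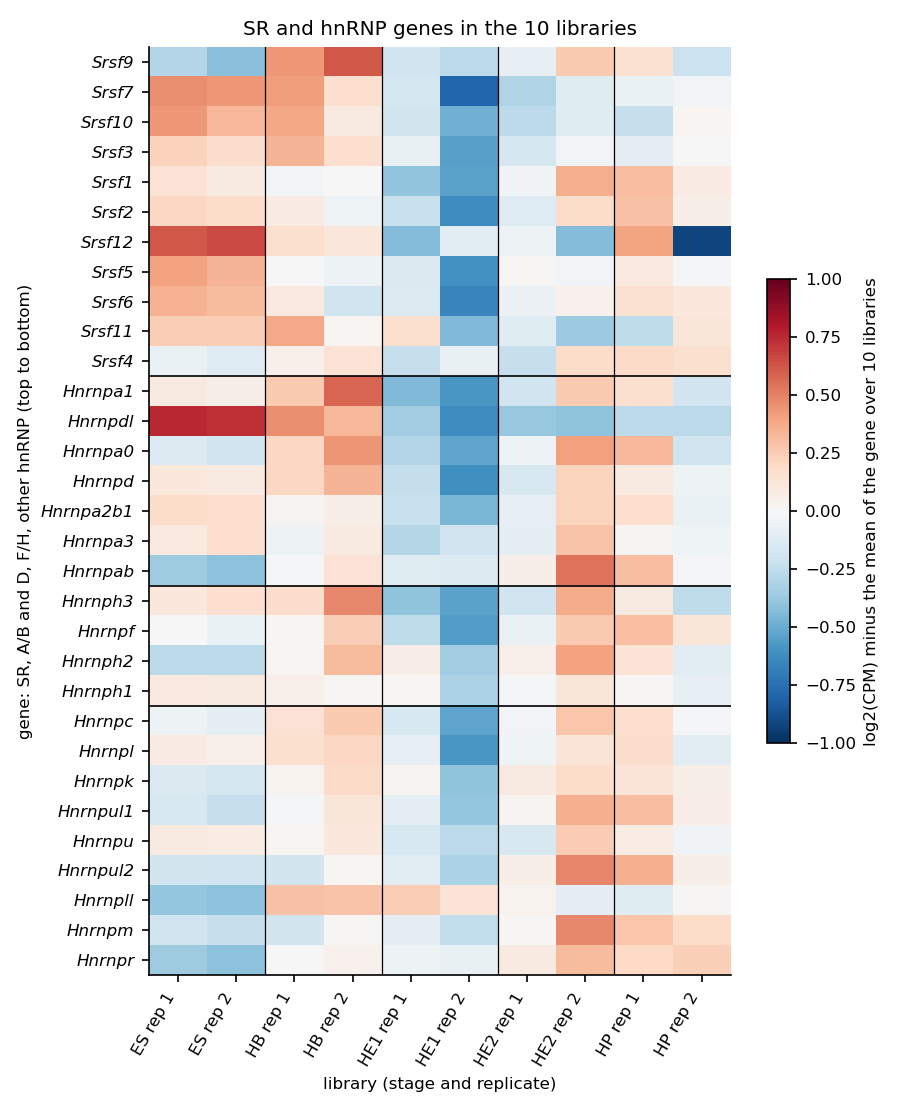
Each row is a gene and each column a library, and colour gives log2(CPM) minus the gene's mean over the 10 libraries, in groups from top to bottom of SR, A/B and D, F/H and other hnRNP genes. The HE1 columns are mostly blue, above all replicate 2, which with this scaling is the lowest library in 24 of 31 genes, and ES and HB hold most of the red of the SR genes.

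The summed level of each family was also lowest in HE1. The 11 SR genes together reached 3626 and 3517 CPM in ES, 3454 and 3104 CPM in HB and 2698 and 2057 CPM in HE1, followed by 2779 and 3168 CPM in HE2 and 3227 and 3125 CPM in HP. For the 20 hnRNP genes the sums were 7945 and 7803 CPM in ES, 8368 and 9138 CPM in HB and 7134 and 6105 CPM in HE1, followed by 7639 and 9601 CPM in HE2 and 8913 and 7753 CPM in HP. Both HE1 libraries lay below every other library in each sum, and with total counts they did so too, at 2575 and 2328 for the SR genes and 6810 and 6910 for the hnRNP genes. The ratio of the hnRNP sum to the SR sum was 2.19 and 2.22 in ES and between 2.42 and 3.03 in the 8 libraries of the later stages. In all 5 stages the library with the larger share of Malat1 and Neat1 had the lower hnRNP sum, and in 4 of 5 it had the lower SR sum, and with total counts in place of TMM this was so in 4 and 3 stages. The shares were 0.966% and 0.992% in ES, 0.452% and 0.384% in HB, 0.604% and 0.261% in HE2, and 0.394% and 0.622% in HP. The part of these RNAs in the sums was not tested.

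The first comparison asked which splicing factors changed when ES cells became haemangioblasts. Between ES and HB 3 of 31 members were called higher, Srsf9, Hnrnpll and Hnrnpr, against 17.8% of all tested genes, and 0 were called lower, against 22.6%. Srsf9, an SR protein with a short arginine and serine domain, was at 58.3 and 53.4 CPM in ES and at 96.4 and 110 CPM in HB, a log2 fold change of 0.89 ± 0.17 (SE, adjusted p = 0.00216, edgeR). Hnrnpll, a relative of Hnrnpl known for the switch in Ptprc splicing in lymphocytes, was at 96.7 and 95.6 CPM in ES and at 155 and 155 CPM in HB (log2 fold change 0.69 ± 0.13, adjusted p = 0.00169, edgeR). The libraries of the stages did not overlap for either gene, and both calls held in all 18 alternative fits, although neither change reached 2-fold. Hnrnpr, which acts in mRNA transport and processing, was at 118 and 113 CPM in ES and at 150 and 155 CPM in HB (0.40 ± 0.13, adjusted p = 0.0312, edgeR); its call was lost without any 1 of the ES or HB libraries, with an adjusted p of 0.137 without ES replicate 1, 0.183 without ES replicate 2, 0.0800 without HB replicate 1 and 0.141 without HB replicate 2, and of 0.0749 with no filter on low counts.

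Over all members, the log2 fold change from ES to HB was above 0 in 15 of 20 hnRNP genes, with a median of 0.19, and in 3 of 11 SR genes, with a median of -0.14, and over all tested genes the median was 0.00. Without the 3 called genes it was above 0 in 13 of 18 hnRNP and 2 of 10 SR genes, and the difference between the families was not tested. With total counts in place of TMM the medians were 0.27 and -0.06, and 8 members were called higher and 1 lower, against 20.5% and 20.9% of all genes in that fit. With only the 4 libraries of ES and HB in the fit 11 were called higher and 3 lower, against 29.8% and 33.2% of all genes in that fit. By DESeq2 2 members were called lower, against 21.6% of all genes, and at an unadjusted p under 0.05 there were 8 members in both directions together, against 48.2% of all genes. Without HE1 replicate 1 or HE1 replicate 2 there were 3 called lower, against 25.0% of all genes in either fit.

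The next comparison asked what changed as haemangioblasts gave rise to the first haemogenic endothelium, and here the change was in 1 direction. All 31 members had a log2 fold change below 0 from HB to HE1, between -0.94 and -0.08 with a median of -0.38, while the median of all tested genes was 0.04. Of the 31, 11 were called lower, against 14.8% of all tested genes, and 0 were called higher, against 17.5%; limma-voom and DESeq2 also called 0 higher and 13 lower each, against 17.2% and 18.0% of all genes called higher and 15.7% and 15.8% lower in their fits. Both HE1 libraries lay below both HB libraries in 25 of 31 members, against 32.6% of all tested genes; without HE1 replicate 1 the number was 31, against 42.8%, and without HE1 replicate 2 it was 25, against 41.7%. The median of the members was -0.58 without HE1 replicate 1 and -0.27 without HE1 replicate 2. The signs were the same under the other scalings and in each other fit, except that Hnrnpm, named after its value was seen, was at 0.01 without HB replicate 2.

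The genes called lower were 4 of 11 SR genes (Srsf9, Srsf7, Srsf10 and Srsf3), 4 of 7 A/B and D genes (Hnrnpa1, Hnrnpdl, Hnrnpa0 and Hnrnpd), 2 of 4 F/H genes (Hnrnph3 and Hnrnpf) and 1 of the 9 others (Hnrnpc). Their number was 17 without HE1 replicate 1, with 15.6% of all genes called lower in that fit, and 3 without HE1 replicate 2, with 10.7%. It was 7 without HB replicate 1, with 10.6%, and 3 without HB replicate 2, with 6.94%. With all libraries 4722 of the 22596 tested genes passed both the test and 2-fold, in both directions together. No fall of a member did. Without HE1 replicate 1 those of Srsf7 (-1.09), Hnrnpdl (-1.03) and Hnrnpa1 (-1.01) did, and without HB replicate 1 those of Hnrnpa1 (-1.14) and Hnrnph3 (-1.001).

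Hnrnpa1, the A/B protein best known for silencing exons and opposing SR proteins at splice sites, was at 862 and 1076 CPM in HB and at 531 and 482 CPM in HE1. Its log2 fold change was -0.94 ± 0.21 (SE, adjusted p = 0.00714, edgeR), and the adjusted p was 0.0729 without HB replicate 2. Hnrnpdl, a close relative of the AU-rich element binding protein Hnrnpd and its neighbour on chromosome 5, was at 310 and 283 CPM in HB and at 177 and 145 CPM in HE1 (-0.88 ± 0.14, adjusted p = 0.00132, edgeR). This call held in all 18 alternatives. The libraries of both genes were well separated between the stages.

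Hnrnph3, which like the other F/H proteins binds runs of guanine, was at 63.0 and 77.7 CPM in HB and at 42.1 and 38.4 CPM in HE1. Its log2 fold change was -0.81 ± 0.20 (SE, adjusted p = 0.0136, edgeR), and the call was lost without HB replicate 2 (adjusted p = 0.114) and without HE1 replicate 2 (adjusted p = 0.0681). Srsf9 returned from its HB level to 62.6 and 59.4 CPM in HE1, a change of -0.76 ± 0.17 (SE, adjusted p = 0.00792, edgeR), and its adjusted p was 0.0707 without HB replicate 2. Srsf7, an SR protein with a zinc knuckle that also acts in mRNA export, was at 384 and 324 CPM in HB and at 255 and 166 CPM in HE1 (-0.75 ± 0.20, adjusted p = 0.0164, edgeR). Its call was lost without HB replicate 1 (adjusted p = 0.0739) and without HE1 replicate 2 (-0.47, adjusted p = 0.0617). Within HE1 the libraries of Srsf7 differed more than those of Hnrnph3 or Srsf9.

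Srsf3, the shortest SR protein and an adaptor of mRNA export, was at 540 and 480 CPM in HB and at 405 and 293 CPM in HE1 (log2 fold change -0.55 ± 0.18, adjusted p = 0.0371, edgeR), and without HE1 replicate 2 the change was -0.33 (adjusted p = 0.147). Its adjusted p was also between 0.0501 and 0.124 without ES replicate 2 or either HB library, and 0.0778 with only the 4 libraries of HB and HE1. Srsf10, which turns into a general repressor of splicing when dephosphorylated, was at 256 and 209 CPM in HB and at 172 and 140 CPM in HE1 (-0.57 ± 0.17, adjusted p = 0.0254, edgeR), and its adjusted p was 0.122 without HB replicate 1 and 0.114 without HE1 replicate 2. Either call was thus lost when 1 of several libraries was left out.

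Of the remaining 4 genes called lower, Hnrnpa0, an intronless A/B gene, was at 347 and 408 CPM in HB and at 246 and 208 CPM in HE1 (log2 fold change -0.74 ± 0.21, adjusted p = 0.0244, edgeR). Hnrnpd was at 291 and 318 CPM in HB and at 213 and 165 CPM in HE1 (-0.69 ± 0.18, adjusted p = 0.0147, edgeR). Each lost its call without HB replicate 2 (adjusted p = 0.156 and 0.0987) and without HE1 replicate 2 (adjusted p = 0.114 and 0.0725). Hnrnpf, a protein of guanine runs like Hnrnph3, was at 209 and 245 CPM in HB and at 173 and 140 CPM in HE1 (-0.54 ± 0.17, adjusted p = 0.0347, edgeR). Hnrnpc was at 405.5 and 440.5 CPM in HB and at 330 and 255 CPM in HE1 (-0.53 ± 0.17, adjusted p = 0.0393, edgeR). The call of Hnrnpf was lost without HB replicate 2 (adjusted p = 0.220), without HE1 replicate 2 (0.151) and with only the 4 libraries compared (0.0527), and that of Hnrnpc without any 1 library of ES or HB, without HE1 replicate 2 and with only the 4 libraries compared, at adjusted p-values between 0.0526 and 0.194.

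Other well known members were also lower in HE1 but were not called. Srsf1, the prototype of the family, was at 522 and 531 CPM in HB and at 406 and 368 CPM in HE1, with a log2 fold change of -0.44 ± 0.17 (SE, adjusted p = 0.0731, edgeR), and was called by limma-voom (adjusted p = 0.0437) and DESeq2 (adjusted p = 0.0328) and with total counts in place of TMM (adjusted p = 0.0410). Srsf2, a nuclear speckle protein that is mutated in myeloid neoplasms, was at 537 and 492 CPM in HB and at 433 and 330 CPM in HE1 (-0.43 ± 0.18, adjusted p = 0.0981, edgeR), and its adjusted p was 0.0400 with total counts and 0.0298 without HE1 replicate 1, while without HE1 replicate 2 the change was -0.25 (adjusted p = 0.356). Hnrnpa2b1, an A/B protein that also sorts RNA into vesicles, was at 887 and 906 CPM in HB and at 744 and 634 CPM in HE1 (-0.38 ± 0.18, adjusted p = 0.122, edgeR). For these 3 genes both HE1 libraries lay below both HB libraries. Hnrnpk, a protein of cytosine-rich RNA and DNA with KH domains, was at 708 and 787 CPM in HB and at 702 and 522 CPM in HE1 (-0.29 ± 0.17, adjusted p = 0.227, edgeR), with -0.52 (adjusted p = 0.0322) without HE1 replicate 1 and -0.09 (adjusted p = 0.699) without HE1 replicate 2. Hnrnpu, the scaffold attachment factor that ties RNA to chromatin, was at 1177 and 1247 CPM in HB and at 1035 and 966 CPM in HE1 (-0.28 ± 0.18, adjusted p = 0.262, edgeR).

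**Figure D3:**
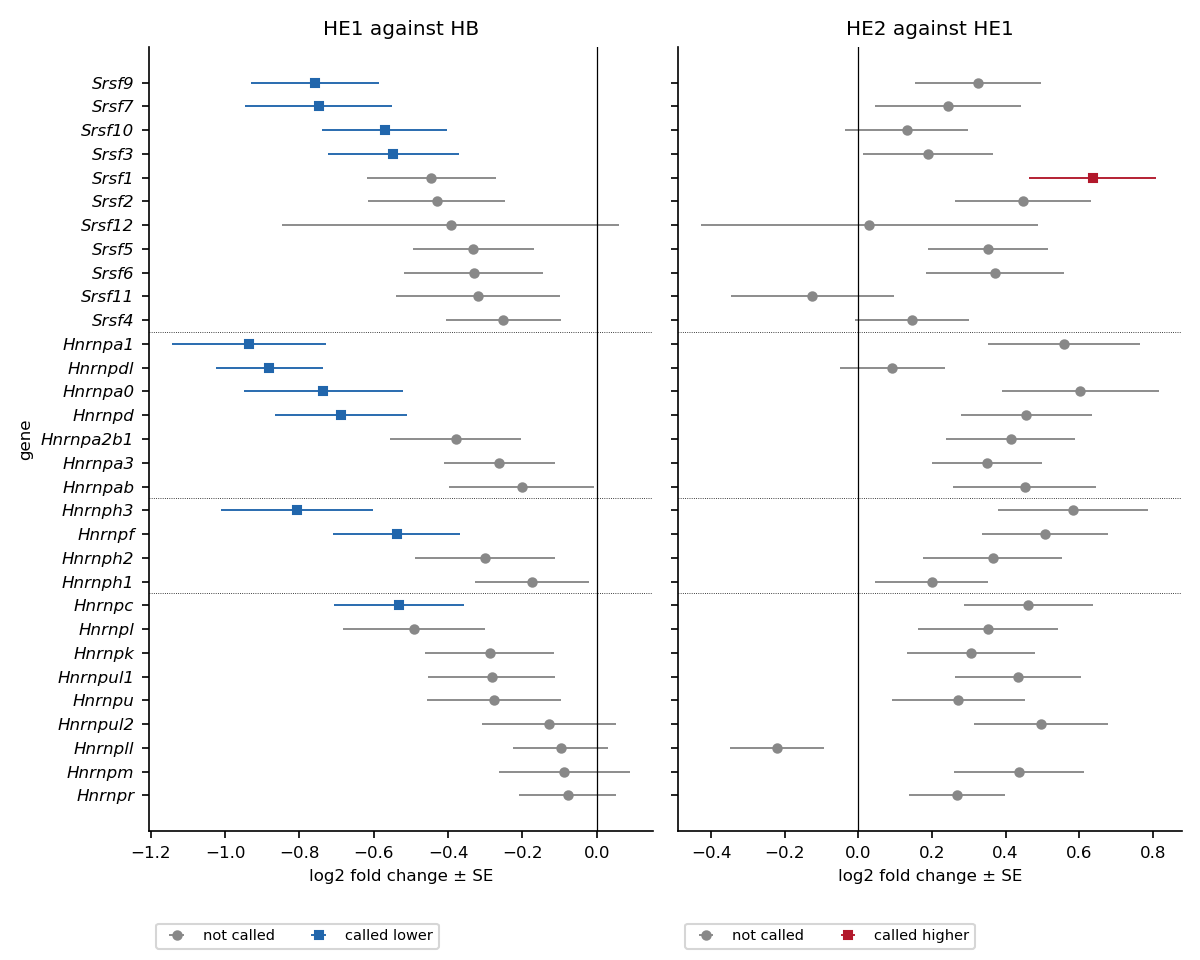
Log2 fold change ± SE of each gene from HB to HE1 (left) and from HE1 to HE2 (right), with called genes as squares and dotted lines between the groups of genes. On the left all 31 points lie below 0 and 11 are called, and on the right 29 lie above 0 and Srsf1 is called.

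The gain of CD41 within the haemogenic endothelium was examined next, in the comparison of HE2 with HE1. The log2 fold change was above 0 in 29 of 31 members, between -0.22 and 0.64 with a median of 0.35, while the median of all tested genes was -0.08. Of the members 1 was called higher, against 6.12% of all tested genes, and 0 were called lower, against 7.12%. At an unadjusted p under 0.05 there were 14 members, against 35.4% of all genes, and DESeq2 called 4 higher, against 9.32%. Both HE2 libraries lay above both HE1 libraries in 21 of 31 members, against 28.8% of all tested genes; without HE1 replicate 1 the number was 28, against 41.7%, and without HE1 replicate 2 it was 22, against 36.7%. The 2 members below 0 were Hnrnpll and Srsf11, both named after their values were seen, and with total counts in place of TMM 28 members had a value above 0.

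The gene called was Srsf1. It was at 406 and 368 CPM in HE1 and at 518 and 685 CPM in HE2, a log2 fold change of 0.64 ± 0.17 (SE, adjusted p = 0.0400, edgeR), and it was 0.57 (adjusted p = 0.147) without HE1 replicate 2, 0.42 (adjusted p = 0.282) without HE2 replicate 2 and 0.82 (adjusted p = 0.0117) without HE2 replicate 1. The call was also lost without either library of ES or of HB, where the adjusted p was between 0.0590 and 0.0693, and with only the 4 libraries of HE1 and HE2 (adjusted p = 0.151). The number of members called higher was 11 without HE1 replicate 1, with 11.6% of all genes called higher in that fit, 10 without HE2 replicate 1, with 10.0%, and 0 without HE1 replicate 2, HE2 replicate 2, or either library of ES or of HB. Without HE1 replicate 2, 25 members stayed above 0, with a median of 0.26.

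The members called lower from HB to HE1 all had a log2 fold change above 0 from HE1 to HE2. The size of the change varied, and differences between members were not tested. Hnrnpa1 was at 626 and 865 CPM in HE2, 0.56 ± 0.21 above HE1 on the log2 scale (adjusted p = 0.0887, edgeR), and it was called by DESeq2 (adjusted p = 0.0419), without HE2 replicate 1 (adjusted p = 0.0326) and with no filter on low counts (adjusted p = 0.00929), while without HE2 replicate 2 the change was 0.31 (adjusted p = 0.490). Srsf3, at 377 and 419 CPM in HE2, overlapped its HE1 libraries (0.19 ± 0.18, adjusted p = 0.446, edgeR), and without HE1 replicate 2 the sign turned, to -0.0255. Hnrnpdl was at 173 and 170 CPM in HE2, within the range of its HE1 libraries, and at 187 and 187 CPM in HP. Srsf7 was at 234 and 265 CPM in HE2 and Srsf10 at 163 and 180 CPM, and each overlapped HE1. Srsf9 was at 67.3 and 85.6 CPM in HE2 and Hnrnph3 at 48.6 and 72.0 CPM, both above HE1, and neither was called.

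Srsf2 was at 464 and 576 CPM in HE2 (log2 fold change 0.45 ± 0.18, adjusted p = 0.114, edgeR) and Hnrnpa2b1 at 823 and 1013 CPM (0.41 ± 0.18, adjusted p = 0.122, edgeR). Hnrnpk was at 733 and 781 CPM in HE2 (0.31 ± 0.17, adjusted p = 0.224, edgeR) and Hnrnpu at 1035 and 1380 CPM (0.27 ± 0.18, adjusted p = 0.293, edgeR). The libraries of these 4 genes in HE2 lay above those in HE1, for Hnrnpu by less than 1 CPM. Their changes depended on the library left out. Without HE1 replicate 2 that of Srsf2 was 0.26 and that of Hnrnpk 0.11, and without HE1 replicate 1 Srsf2 and Hnrnpk had an adjusted p of 0.0363 and 0.0376. Without HE2 replicate 2 the change of Srsf2 was 0.28, that of Hnrnpa2b1 0.26 and that of Hnrnpu 0.05, and without HE2 replicate 1 that of Hnrnpu was 0.46. HE2 replicate 2 was the higher HE2 library in 26 of 31 members and the highest of all 10 libraries in 12. The HE2 libraries also differed in markers, with Cdh5 at 862 CPM in replicate 1 and 412 CPM in replicate 2 and Runx1 at 295 and 519 CPM, and the part of this in the values of HE2 was not tested.

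**Figure D4:**
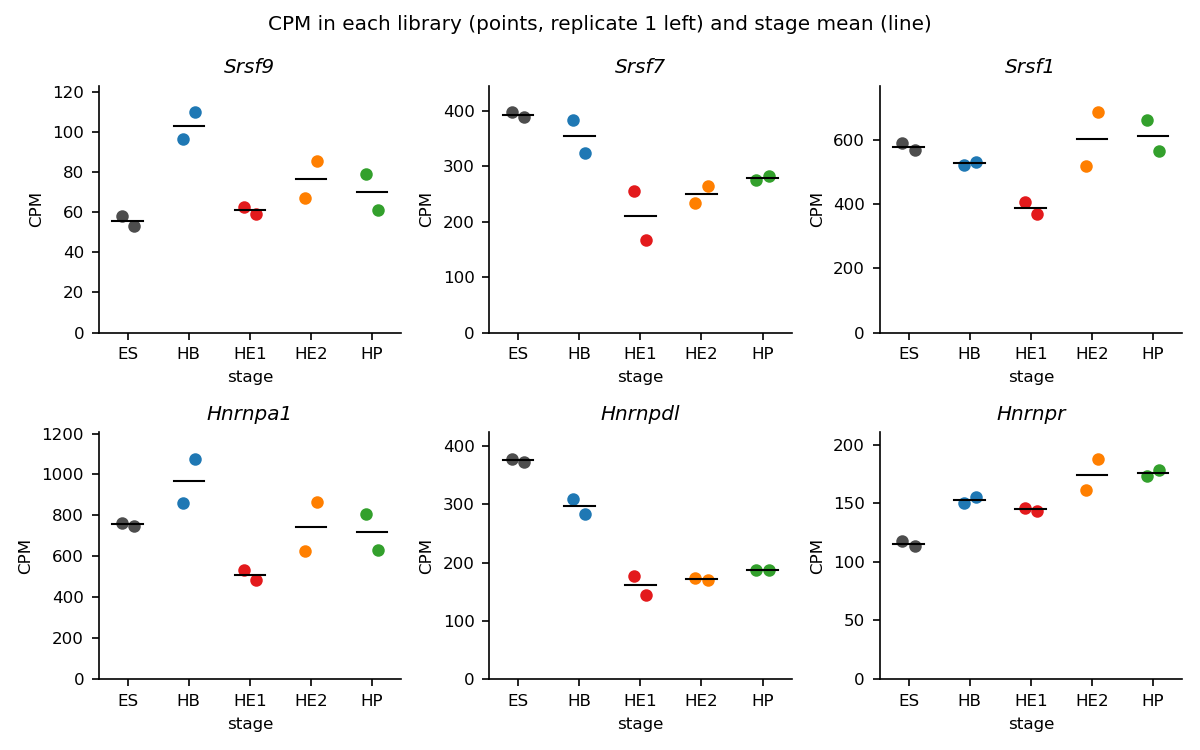
CPM (axis from 0) of 6 genes in each library, with replicate 1 on the left and replicate 2 on the right of each stage, and the stage mean as a line. The stage means of Srsf9 and Hnrnpa1 are highest in HB. Hnrnpdl drops from 378 and 374 CPM in ES to 177 and 145 CPM in HE1 and stays near that level. Hnrnpr lies higher in HP than in ES.

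From HE2 to HP, when TIE2 is lost, no member was called. The test called 0 higher and 0 lower of 31, and over all tested genes it called 0% in either direction, so the members' count says nothing about them. At an unadjusted p under 0.05 there were 0 members and 1783 of all genes (7.89%), while DESeq2 called 0 members, 0.682% of all genes higher and 1.38% lower, and limma-voom called 0 members, 0.173% of all genes higher and 0.119% lower. The log2 fold changes of the members lay between -0.22 and 0.18, and their signs depended on the scaling, with 13 above 0 under TMM and 23 under total counts.

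The whole course was compared by setting HP against ES, a comparison that shares the ES libraries with that of HB and the HP libraries with that of HE2. It called 3 members higher (Hnrnpr, Hnrnpab and Hnrnpll), against 24.1% of all tested genes, and 2 lower (Hnrnpdl and Srsf10), against 27.5%. With total counts in place of TMM it called 10 higher and 1 lower, against 26.7% and 25.6% of all genes, and with only the 4 libraries of ES and HP it called 11 higher and 4 lower, against 29.5% and 32.8% of all genes. The median log2 fold change was 0.20 over the hnRNP genes and -0.25 over the SR genes, or 0.28 and -0.16 with total counts. The number called higher was 1 without either library of ES, either of HB or HP replicate 1, where between 16.2% and 22.7% of all genes were called higher, and 5 without either library of HE2, where 24.7% were. The number called lower was 1 without either library of ES, against 21.3% and 21.4% of all genes, and 4 without either library of HE1, against 29.5%.

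Hnrnpdl was at 378 and 374 CPM in ES and at 187 and 187 CPM in HP, with a change of -1.01 ± 0.14 on the log2 scale (SE, adjusted p = 0.000207, edgeR). With all libraries 8740 of the 22596 tested genes passed both the test and 2-fold, and Hnrnpdl was the only member that did. Its call held in all 18 alternatives, while its change lay between -1.03 and -0.92 and so fell short of 2-fold in some, as with total counts in place of TMM. Its share of the hnRNP sum per kb went from 5.18% and 5.23% in ES to 2.21% and 2.63% in HP. Srsf10, at 264 and 246 CPM in ES, was at 167 and 198 CPM in HP (-0.48 ± 0.17, adjusted p = 0.0324, edgeR), and its adjusted p was 0.155 without ES replicate 1, 0.0868 without ES replicate 2 and 0.180 without HP replicate 1, and 0.0632 with total counts in place of TMM.

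In the other direction, Hnrnpr was at 173 and 178 CPM in HP (log2 fold change 0.60 ± 0.13, adjusted p = 0.00303, edgeR), and this call held in all 18 alternatives. Its levels were also above those of ES in each later stage, with 146 and 144 CPM in HE1 and 161 and 188 CPM in HE2. Hnrnpab, an A/B protein that also binds DNA, was at 596 and 575 CPM in ES, 761 and 846 CPM in HB, 703 and 694 CPM in HE1, 797 and 1113 CPM in HE2, and 948 and 756 CPM in HP (HP against ES 0.54 ± 0.20, adjusted p = 0.0387, edgeR). Its call was lost without any 1 of the ES or HB libraries or HP replicate 1, at which the adjusted p was between 0.0598 and 0.224. In the hnRNP sum per kb Hnrnpab took 14.2% and 13.9% in ES and 18.7% and 21.4% in HE1, where Hnrnpa1 took 12.5% and 13.1% after 16.02% and 16.04% in ES. Hnrnpll was at 151 and 139 CPM in HE1, 130 and 119 CPM in HE2 and 116 and 128 CPM in HP (HP against ES 0.34 ± 0.13, adjusted p = 0.0435, edgeR), and its call was lost without any 1 of the ES, HB or HP libraries, with adjusted p-values between 0.0578 and 0.204, and with another scaling (RLE, 0.0550) or no filter on low counts (0.118). It was the only hnRNP gene with a level in HE2 below that in HE1.

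The genes named for their level or their role alone had these values at the ends of the course. Srsf1 was at 590 and 567 CPM in ES and at 660 and 565 CPM in HP. Srsf2 was at 584 and 575 CPM in ES and at 621 and 528 CPM in HP, and Srsf3 at 499.8 and 482 CPM in ES and at 398 and 426 CPM in HP. Hnrnpa2b1 was at 989 and 977 CPM in ES and at 980 and 831 CPM in HP, Hnrnpk at 624 and 611 CPM and at 755 and 716 CPM, and Hnrnpu at 1231 and 1223 CPM and at 1222 and 1130 CPM. None of these 6 genes was called between ES and HP.

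Srsf7 was at 397 and 390 CPM in ES and at 274 and 283 CPM in HP, and Srsf9 at 79.1 and 61.4 CPM in HP. Hnrnpa1 was at 765 and 750 CPM in ES and at 806 and 631 CPM in HP, and Hnrnph3 at 59.8 and 62.7 CPM in ES and at 59.3 and 46.6 CPM in HP; none of these was called. Srsf4, an SR protein with a long arginine and serine domain, stayed between 78.7 CPM in HE1 replicate 1 and 106 CPM in HP replicate 1. Hnrnpa3 stayed between 74.2 CPM in HE1 replicate 1 and 110 CPM in HE2 replicate 2. Srsf12 was near the lower end of what was counted in every library, at 2.96 and 3.04 CPM in ES, 2.15 and 2.08 CPM in HB, 1.43 and 1.78 CPM in HE1, 1.86 and 1.43 CPM in HE2, and 2.53 and 1.02 CPM in HP; no comparison called it with all libraries, and it was called lower in HP than in ES only without HP replicate 1 (log2 fold change -1.56, adjusted p = 0.0258, against -0.74 and 0.185 with all libraries, edgeR), while 3 counts correspond to at most 0.120 CPM.

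The 13 other members were given by their range. Each had its lowest level in HE1 replicate 2 with TMM scaling. Srsf5, Srsf6 and Srsf11 lay between 159 and 319 CPM, 240 and 483 CPM, and 212 and 374 CPM. Hnrnpa0 lay between 208 and 408 CPM, Hnrnpd between 165 and 318 CPM, Hnrnpc, a protein of uridine tracts, between 255 and 445 CPM, and Hnrnpf between 140 and 253 CPM. Hnrnph1 and Hnrnph2 lay between 280 and 381 CPM and between 62.2 and 105 CPM, Hnrnpl, a protein of CA repeats, between 388 and 668 CPM, Hnrnpm between 345 and 571 CPM, and Hnrnpul1 and Hnrnpul2 between 232 and 388 CPM and between 187 and 327 CPM. The highest level fell in HE2 replicate 2 for 6 of these 13, Hnrnpc, Hnrnph1, Hnrnph2, Hnrnpm, Hnrnpul1 and Hnrnpul2.

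Other genes of the splicing machinery gave the setting of these values. The shares of all genes called are those given above, 17.8% higher and 22.6% lower from ES to HB and 17.5% and 14.8% from HB to HE1. They were 6.12% and 7.12% from HE1 to HE2 and 24.1% and 27.5% from ES to HP. Among 30 core spliceosome genes, 8 were called lower and 0 higher from HB to HE1, with all 30 below 0 and a median of -0.43, and from HE1 to HE2 1 was called higher and 29 lay above 0, with a median of 0.48. The calls of core genes in both comparisons depended on which HE1 library was left out. Without HE1 replicate 2, 30 core genes lay below 0 from HB to HE1 and 28 above 0 from HE1 to HE2. Among them the Sm protein genes Snrpf and Snrpe fell by 0.82 and 0.77 on the log2 scale from HB to HE1 (adjusted p = 0.0268 and 0.0218, edgeR), and neither was called without HE1 replicate 1 (adjusted p = 0.0730 and 0.0860) or without HE1 replicate 2 (adjusted p = 0.0995 and 0.0531). From ES to HB 2 core genes were called higher and 1 lower, and from ES to HP 1 was called higher and 3 lower, with 16 above and 14 below 0. Cdc5l, a subunit of the Prp19 complex, was lower in HP than in ES by a log2 fold change of -0.79 ± 0.16 (SE, adjusted p = 0.00179, edgeR). The signs of the core genes through HE1 were those of nearly all SR and hnRNP genes, and the median range over the stages was 0.56 on the log2 scale in the core genes and 0.60 in the members.

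The 13 hnRNP genes with other symbols had 0 called higher and 3 lower from HB to HE1, 2 higher and 0 lower from ES to HB, 0 higher and 1 lower from HE1 to HE2, and 1 higher and 2 lower from ES to HP. From HB to HE1 it was 5 lower without HE1 replicate 1, and 1 higher and 1 lower without HE1 replicate 2; the shares of all genes called higher and lower in these fits were 17.3% and 15.6%, and 14.5% and 10.7%. Ptbp3, a polypyrimidine tract protein of blood cells, was at 158 and 156 CPM in ES and at 378 and 357 CPM in HP (log2 fold change 1.22 ± 0.26, adjusted p = 0.00249, edgeR). Its HE1 libraries differed, with 337 CPM in replicate 1 and 173 CPM in replicate 2. Ptbp2, the paralogue known from neurons, was higher in HB than in ES by 1.04 ± 0.28 (SE, log2 scale, adjusted p = 0.0125, edgeR). Pcbp4 was at 155 and 155 CPM in HE1 and at 87.2 and 63.4 CPM in HE2 (-1.04 ± 0.16, adjusted p = 0.00461, edgeR), and Pcbp3 was lower in HP than in ES by -1.21 ± 0.20 (adjusted p = 0.000608, edgeR); both code for cytosine-rich RNA binders.

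Of the kinases, importer and relatives of the SR proteins, 13 of 14 were tested. From HB to HE1 0 were called higher and 3 lower, from ES to HB 2 higher and 2 lower, and from ES to HP 2 higher and 4 lower, and there were 0 from HE1 to HE2. The counts from HB to HE1 and from HE1 to HE2 depended on which HE1 library was left out. Among the kinases that phosphorylate SR proteins, Clk3 was higher in HP than in ES by 1.06 ± 0.19 (SE, log2 scale, adjusted p = 0.00104, edgeR). Clk2 and Srpk1 were lower, by -0.64 ± 0.15 and -0.49 ± 0.14 (adjusted p = 0.00534 and 0.0128, edgeR). Srpk2, Clk1 and Clk4 were not called in this comparison. Tra2a, a transformer protein with arginine and serine domains, fell from 260 and 255 CPM in ES to 147 and 168 CPM in HP (-0.71 ± 0.14, adjusted p = 0.00202, edgeR), and Rsrc1 rose by a log2 fold change of 1.08 ± 0.15 (adjusted p = 0.000208, edgeR).

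Splicing regulators known from certain cell types covered a much wider range, with a median of 3.68 on the log2 scale over 28 genes tested of 30. From ES to HP 8 were called higher and 14 lower. Esrp1, the regulator of epithelial splicing, was at 76.1 and 75.2 CPM in ES and at 0.502 and 0.254 CPM in HP, and Elavl3 was at 18.9 and 18.6 CPM and at 0.183 and 0.159 CPM. Rbm47 went from 55.6 and 52.3 CPM to 2.49 and 2.83 CPM, and Rbm24, known for muscle splicing, from 0.390 and 0.545 CPM to 17.2 and 12.8 CPM, with 23.2 and 30.8 CPM in HB. Esrp1, like the ES markers, was higher in HE1 replicate 2 (5.61 CPM) than in HE1 replicate 1 (1.22 CPM). The 10 minor spliceosome genes had a median range of 0.75 on the log2 scale, with 4 called higher and 2 lower from ES to HP. Snrnp25 fell from HB to HE1 by 1.29 and rose from HE1 to HE2 by 1.25 on the log2 scale (SE 0.26 each, adjusted p = 0.00453 and 0.0179, edgeR), and its rise was not called without HE1 replicate 2 (adjusted p = 0.0902). Snrnp48 was lower in HP than in ES by -1.10 ± 0.23 (adjusted p = 0.00255, edgeR), while Zcrb1 and Snrnp35 were higher by 1.08 ± 0.16 and 1.27 ± 0.28 (adjusted p = 0.000329 and 0.00362, edgeR).

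**Figure D5:**
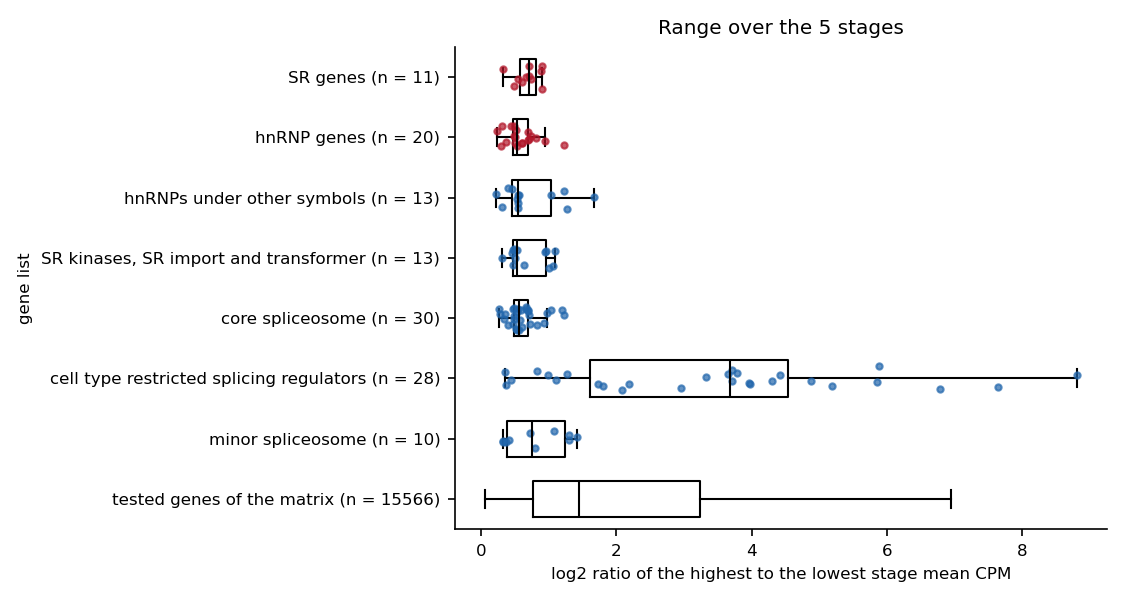
Log2 ratio of the highest to the lowest stage mean CPM for the SR and hnRNP genes (red points), 5 lists of other splicing genes (blue points) and the tested genes of the matrix (no points), with boxes for the quartiles, a line for the median and whiskers to the last value within 1.5 times the box. The SR and hnRNP genes have medians of 0.71 and 0.52, near that of the core spliceosome genes at 0.56, while the regulators known from certain cell types have a median of 3.68.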

How the data were processed

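Nuclear RNA-seq of 5 stages with 2 libraries each was used. According to the submitters' processing notes and the file headers, the authors used Trimmomatic for trimming and HISAT2 (v2.2.1) for alignment on mm10. They deposited counts per gene of Ensembl release 102 from featureCounts (v2.0.1), taken over exons on the reverse strand, with a fragment over several genes counted on each and fragments aligned to several places left out. The authors also deposited a matrix with 1 expression score per stage and gene, made after normalization and averaging. Its scores are not given here. Its list of genes served to choose the members, as a background and in 1 alternative fit. Gene positions and lengths are those of the count files.

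From the counts, filterByExpr took out genes with too few counts, library sizes were scaled with TMM, and edgeR (v4.0.16, R v4.3.3) was fitted to all 10 libraries with stage as the only term (5 residual degrees of freedom). All comparisons used the quasi-likelihood F test with Benjamini-Hochberg adjustment over 22596 genes, and so did the test over the 5 stages. Alternatives were limma-voom (v3.58.1), DESeq2 (v1.42.0), other scalings and filters, fits of the 4 libraries compared, a replicate block, and leaving out each library, where a lone library is assumed to vary like the other groups. A floor of 3 counts covers counting error only. Mitochondrial genes were at 0 counts in all libraries and gave no measure of quality. The members, and the lists of other genes, were chosen with earlier results of these data known. By the rule for names, genes were given in full when among the 3 largest called changes in either direction of a comparison, the 3 highest or lowest levels of a family, or among Srsf1, Srsf2, Srsf3, Hnrnpa1, Hnrnpa2b1, Hnrnpk and Hnrnpu; a list of other genes had at most 4 named, by the largest called change. Further genes called between HB and HE1 were named as the members of that count, after their values were seen. The kinases of SR proteins other than Clk2 and Clk3 were also named after their values were seen. Tables and figures were made in Python (v3.11.15) with pandas (v2.3.3), numpy (v2.4.6) and matplotlib (v3.10.9).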

Additional observations from a re-analysis of the deposited data

Results flagged for a closer look

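Genes outside the matrix whose symbols begin with Hnrnp also held counts. Hnrnpa1l2-ps reached 4 counts in a library and Hnrnpa1l2-ps2 reached 19 counts, above the limit of 3 counts that a count of 0 allows. They are copies of an A/B gene, and neither entered any comparison. No stage has enough libraries for a test of a library that lies far from the others.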

How the results depend on the processing

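With 2 libraries per stage the counts of called members depended on the settings. With a change of at least 2-fold required as well, HP against ES gave 0 higher and 1 lower. There were 0 higher in HB than in ES, 0 lower in HE1 than in HB and 0 higher in HE2 than in HE1. Of all 22596 tested genes, in both directions together, 8740 passed both for HP against ES and 6507 for HB against ES. The numbers were 4722 for HE1 against HB and 1954 for HE2 against HE1. With total counts in place of TMM, HB against ES gave 8 higher and 1 lower, HP against ES 10 higher and 1 lower, and 23 differed over the 5 stages. With only the 4 libraries compared, HB against ES gave 11 higher and 3 lower, HE2 against HE1 0 higher, and HP against ES 11 higher and 4 lower. With only genes of the authors' matrix in the fit, 6 were higher in HB than in ES, 6 higher in HP than in ES and 17 differed over the stages, against 24.6%, 30.0% and 79.0% of all genes in that fit. With no filter on low counts 10 were higher in HE2 than in HE1 and 21 differed over the stages, against 6.24% and 44.4% of all genes in that fit; with the filter the latter were 10 members and 66.7%. DESeq2 gave 2 lower in HB than in ES, 4 higher in HE2 than in HE1 and 20 over the stages, and limma-voom gave 18 over the stages. The cause of these differences was not tested.

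With the replicate block, 0 members were higher in HE2 than in HE1, and HP against ES gave 1 higher and 1 lower. It also gave 2 higher in HB than in ES and 8 lower in HE1 than in HB. The shares of all genes in that fit were 4.04% higher in HE2 than in HE1, 22.2% higher and 25.9% lower in HP than in ES, 15.97% higher in HB than in ES and 12.6% lower in HE1 than in HB. The calls lost were those of Hnrnpr between ES and HB (adjusted p = 0.0570), of Srsf3, Hnrnpf and Hnrnpc between HB and HE1 (0.0561, 0.0572 and 0.0642), of Srsf1 between HE1 and HE2 (0.0689), and of Srsf10, Hnrnpab and Hnrnpll between ES and HP (0.0509, 0.0609 and 0.0758). Whether libraries with the same replicate number belong together is not given in the labels. The correlations of their deviations between stages lay between -0.316 and 0.213, which cannot show whether they do.

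Leaving out each library in turn gave 0 to 3 members lower in HB than in ES (3 without either HE1 library), 3 to 17 lower in HE1 than in HB (3 without HB replicate 2 or HE1 replicate 2, 7 without HB replicate 1, 17 without HE1 replicate 1), 0 to 11 higher in HE2 than in HE1 (11 without HE1 replicate 1, 10 without HE2 replicate 1), 1 to 5 higher and 1 to 4 lower in HP than in ES, and 4 to 17 that differed over the stages. The comparison of HP with HE2 called 0 members in each of these fits. The difference of Srsf3 between HE2 and HE1 turned to -0.0255 on the log2 scale without HE1 replicate 2 and was 0.44 without HE1 replicate 1. Of 558 values of single members under the alternatives, 478 kept their direction and their side of the threshold, 63 lost a call, 16 gained one and 1 turned. The alternatives of the test over the 5 stages and the counts of libraries that do not overlap, each without an HE1 library, the values of the other gene lists and the stage of the lowest mean without an HE1 library, and the order of the libraries with total counts were added after seeing the data.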
